A study of Mus musculus with 12 samples.

Results

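The 9 genes described here, Dbp, Tef, Hlf, Nfil3, Ciart, Bhlhe40, Bhlhe41, Rora and Usp2, carry signals out of the circadian clock of the liver or feed them back into it. They were chosen by name, as the rows of the deposited count table whose Ensembl identifiers map to these symbols, and make up 9 of 55414 genes in the table. All 9 passed edgeR's filter on low counts, which kept 13857 genes. RNAseq was performed on whole livers of 12 female C57BL/6J mice aged 8 to 12 weeks. Each mouse received 2 i.p. injections, the first of 0.9% NaCl or of 300 mg/kg FeSO4 (an acute iron overload, dissolved in the same saline) and the second, 6 h later, of PBS or of 10 mg/kg dexamethasone (DEX, a synthetic glucocorticoid that activates the GR). The livers came from mice killed 8 h after the first injection, thus 2 h into DEX or PBS, in the groups NaCl/PBS, NaCl/DEX, FeSO4/PBS and FeSO4/DEX with 3 mice each. The hour of the day is not given in the sources used here, although these genes change over the day.

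In the clock, the activators CLOCK and BMAL1 bind E-box sequences and switch on genes that include their own repressors. Dbp, Tef and Hlf encode the PAR-bZIP factors, a small family of leucine zipper activators that bind D-box sequences in genes of liver metabolism and detoxification. Nfil3 encodes a related zipper protein that occupies the same D-boxes as a repressor. Ciart, Bhlhe40 and Bhlhe41 encode repressors of CLOCK and BMAL1, Rora encodes a nuclear receptor that activates genes through ROR elements, and Usp2 encodes a deubiquitinase whose transcript is rhythmic in liver. The GR is one of the factors that can reset clock genes in this organ.

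The stretches of sequence upstream of the members' start sites show which of them carry an exact E-box or ROR element close to the start. They were read from GRCm39, the same build as the mm39 used by the authors, over the 250 bases before the start of each gene's canonical transcript in GENCODE vM39, and are printed in the direction of transcription. The capitals mark the E-box CACGTG. The first 2 windows belong to Tef, which fell after FeSO4, and Bhlhe40, which rose. They lie at chr15:81695365-81695614 on the plus strand for Tef and at chr6:108636376-108636625 on the plus strand for Bhlhe40.
Tef: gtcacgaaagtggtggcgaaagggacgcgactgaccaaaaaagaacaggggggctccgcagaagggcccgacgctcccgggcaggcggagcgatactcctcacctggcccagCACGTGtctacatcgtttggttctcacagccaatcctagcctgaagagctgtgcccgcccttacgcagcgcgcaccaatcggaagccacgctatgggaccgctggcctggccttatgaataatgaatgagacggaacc
Bhlhe40: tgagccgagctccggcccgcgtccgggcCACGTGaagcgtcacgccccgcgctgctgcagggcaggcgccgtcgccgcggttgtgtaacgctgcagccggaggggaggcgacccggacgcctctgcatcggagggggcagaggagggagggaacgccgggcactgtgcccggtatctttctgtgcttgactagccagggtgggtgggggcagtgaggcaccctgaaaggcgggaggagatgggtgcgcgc

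Ciart and Usp2 also held the E-box, and Dbp held the ROR element TAGGTCA. Their sites are given with 12 bases before the motif and 30 bases in all, at chr3:95789639-95789668, chr3:95789581-95789610 and chr3:95789567-95789596 on the minus strand for Ciart, at chr9:43978148-43978177 on the plus strand for Usp2 and at chr7:45354311-45354340 on the plus strand for Dbp. The capitals mark the motif, and the last 2 stretches of Ciart overlap.
Ciart, farthest from the start: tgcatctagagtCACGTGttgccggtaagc
Ciart, middle: cgcagggggaggCACGTGcagaaccgcacg
Ciart, nearest to the start: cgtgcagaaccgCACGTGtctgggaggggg
Usp2: gtgctttttctcCACGTGgttctctgtata
Dbp: attggccaaataTAGGTCAgtgtcccgcct

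Thus 4 of the 9 members had the E-box within 250 bases, while 7.72% of 12674 promoters of tested protein-coding genes had it. The ROR element was found in 1 member and in 1.95% of all promoters. None of the 9 windows held the E-box variant CACGTT, found in 5% of promoters, the D-box TTACGTAA (0.134%), its variant TTATGTAA (0.544%) or ACANNNTGT, the spaced core of a glucocorticoid response element in which N is any base (3.98%). Matches were searched on both strands. They are descriptions of letters, and other regulatory regions of these genes were not read. For Tef, Nfil3, Ciart and Rora other annotated transcripts begin further upstream, so that the windows lie within the span of the gene, and the window of Bhlhe41 lies partly within it.

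The libraries held from 16335651 to 23827340 counted reads (median 19602514), and no pair of libraries of the same group was alike within sampling noise. Pairs from different groups were not compared in this way. FeSO4/PBS mouse 1 stood apart from its group: the chi-square of the counts per gene was 81.4 and 64.9 against the other FeSO4/PBS mice, while the other pairs within a group had from 16.8 to 33.9. Without this mouse 8 members instead of 7 were called after FeSO4, 6 instead of 5 after DEX in NaCl mice, 0 after DEX in FeSO4 mice, 8 after FeSO4 in DEX mice and 3 for the interaction. Of all 14264 genes in this fit, 3676 were higher and 3707 lower after FeSO4, and 1284 and 1259 after DEX in NaCl mice. Counts were 0 and 0 for DEX in FeSO4 mice, 3270 and 3483 for FeSO4 in DEX mice and 390 and 628 for the interaction. Levels below are normalized counts, that is, counts scaled by TMM to the mean effective library size of 19810818. Differences are log2 fold changes (LFCs) with their standard errors, and FDR is the Benjamini-Hochberg adjusted p of edgeR's quasi-likelihood test over all 13857 genes, called at 0.05 or less. These p-values set a difference between groups against the spread of mice within groups, estimated from all 12 mice and moderated over genes. An exact permutation test of 1 gene with 3 mice per group, two-sided, has 0.1 as its smallest possible p. The treatments were visible in marker genes: Hmox1, the heme oxygenase gene induced by iron, had an LFC of 6.02 (SE 0.26, FDR 3.3e-09) after FeSO4, while the GR targets Fkbp5 and Tsc22d3 had LFCs of 2.24 (SE 0.29, FDR 1.4e-04) and 1.68 (SE 0.17, FDR 2.2e-05) after DEX in NaCl mice.

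**Figure D1:**
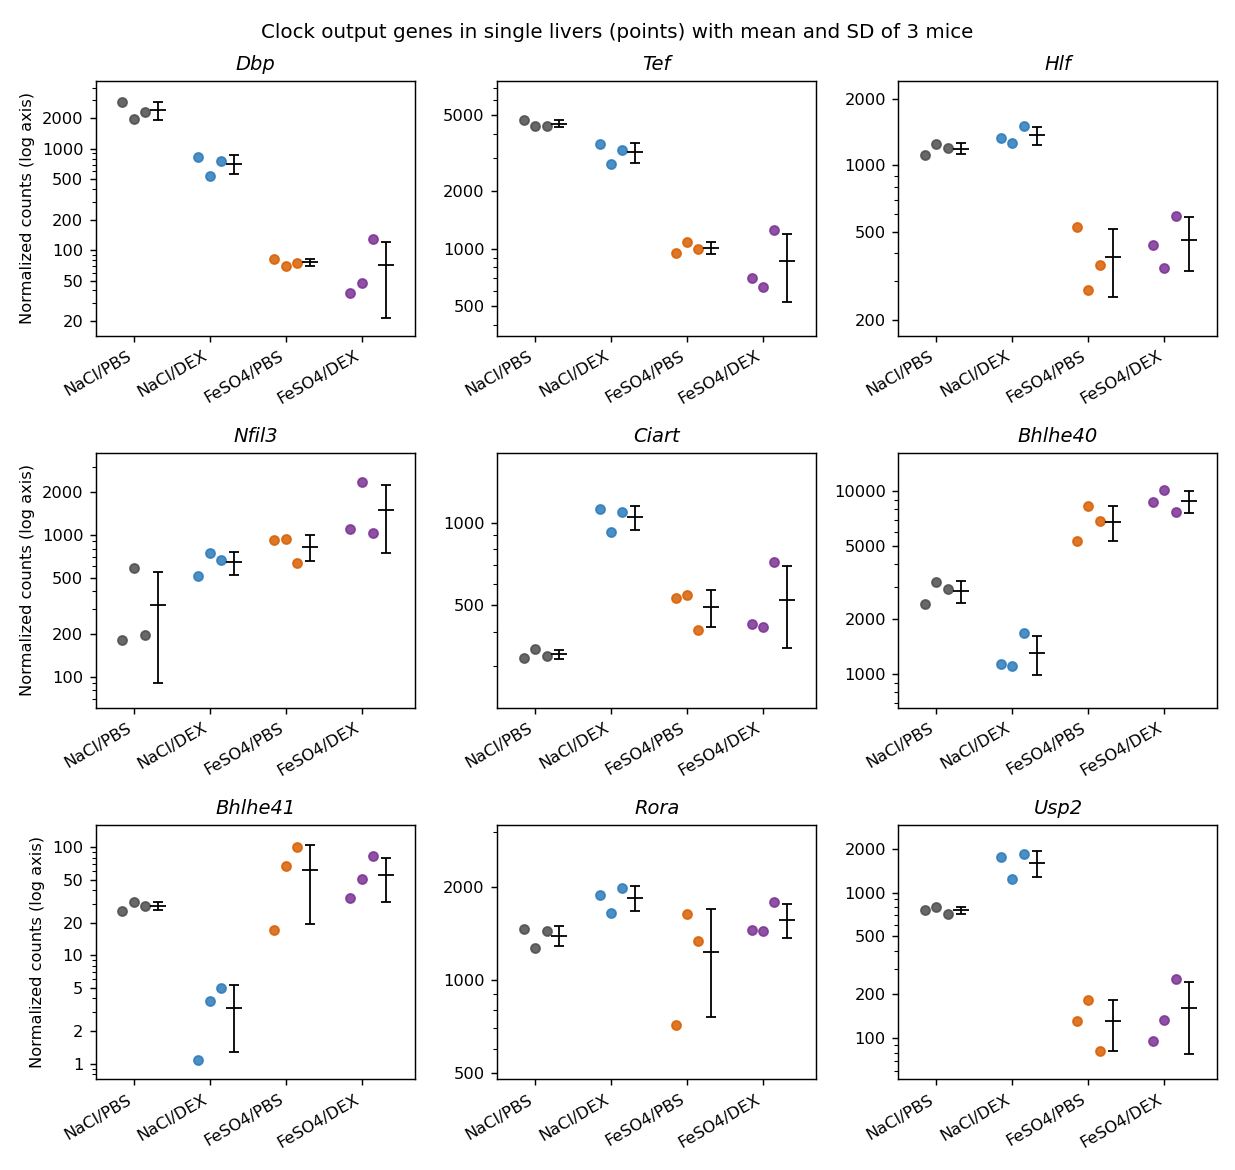
Normalized counts (y axis, log scale) of the 9 genes in the 4 groups (x axis). Each point is 1 liver, and the black mark with bars gives the mean and SD of 3 mice. Dbp, Tef, Hlf and Usp2 lay lower in all 6 livers given FeSO4 than in all 6 given NaCl, whereas for Rora each group overlapped with the next in order of mean.

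To see how iron overload changed clock output without DEX, the FeSO4/PBS mice were compared with the NaCl/PBS mice. The paper reports that this dose of FeSO4 raised corticosterone, a glucocorticoid, in serum. Mice without DEX were therefore not without glucocorticoid. All 3 PAR-bZIP activators and Usp2 were lower, and Nfil3, Ciart and Bhlhe40, which encode repressors, were higher. Thus 7 of the 9 members were called, 3 higher and 4 lower, whereas 54.5% of all genes tested were called in this comparison, 27.2% higher and 27.3% lower. In 7 of the 9 members the groups did not overlap, and this held for 60% of all genes. The median LFC of the 9 members was -0.18, beside -0.02 over all genes tested.

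Dbp (ENSMUSG00000059824, chromosome 7 from 45354512 to 45359627), the PAR-bZIP gene with the strongest daily rhythm in liver, had 2914, 1966 and 2309.9 normalized counts in the NaCl/PBS mice. In the FeSO4/PBS mice it had 81.6, 70.2 and 75.2. The lowest NaCl/PBS liver thus lay far above the highest FeSO4/PBS liver, and the 3 FeSO4/PBS livers lay close together. The LFC was -4.98 (SE 0.34, FDR 8.9e-08), or 31.6-fold lower, the largest change of any member in this comparison. Of the 3470 exonic bases of Dbp, 539 are shared with Sphk2 on the opposite strand. Sphk2 had mean reads of 896 in NaCl/PBS and 539 in FeSO4/PBS livers, and the strand used for counting is not stated.

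Tef (ENSMUSG00000022389, chromosome 15 from 81686622 to 81711064), another PAR-bZIP gene, had 4736, 4394 and 4425 normalized counts in NaCl/PBS livers. After FeSO4 the counts were 954, 1093 and 993. The groups were well separated, and both had a small spread. Tef fell by 2.16 on the log2 scale (SE 0.20, FDR 1.4e-06). Hlf (ENSMUSG00000003949, chromosome 11 from 90227221 to 90281761), the remaining family member, went from 1121, 1258 and 1202 to 527, 272 and 355. No FeSO4/PBS liver reached a NaCl/PBS liver, and the LFC of Hlf was -1.63 (SE 0.22, FDR 2.8e-05). The 95% intervals of the LFC ran from -5.72 to -4.25 for Dbp, from -2.59 to -1.72 for Tef and from -2.10 to -1.17 for Hlf.

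Nfil3 (ENSMUSG00000056749, chromosome 13 from 53121245 to 53137010) had 181, 585 and 196 normalized counts in the NaCl/PBS mice. In the FeSO4/PBS mice it had 915, 934 and 634. The groups did not overlap, but NaCl/PBS mouse 2 stood apart from the other NaCl/PBS mice and lay just under the lowest FeSO4/PBS mouse. The LFC was 1.38 (SE 0.41, FDR 0.011), and it was 2.14 (FDR 1.7e-04) without this mouse. Without NaCl/PBS mouse 3 the LFC was 1.12 and Nfil3 was no longer called (FDR 0.050014).

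The repressor gene Bhlhe40 (ENSMUSG00000030103, chromosome 6 from 108636626 to 108644502), which encodes DEC1, rose from 2432, 3201 and 2944 normalized counts to 5326, 8297 and 6847. Every FeSO4/PBS liver exceeded every NaCl/PBS liver (LFC 1.26, SE 0.19, FDR 9.6e-05). Its paralog Bhlhe41 (ENSMUSG00000030256, chromosome 6 from 145803969 to 145811430), which encodes DEC2, was scarce. It had 25.9, 30.9 and 28.8 normalized counts in NaCl/PBS and 17.1, 67.1 and 101 in FeSO4/PBS livers. Since FeSO4/PBS mouse 1 lay below all NaCl/PBS mice, the groups overlapped, and Bhlhe41 was not called (LFC 1.098, SE 0.50, FDR 0.078). Without FeSO4/PBS mouse 1 it was called, with an LFC of 1.56 (FDR 0.0032).

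Ciart (ENSMUSG00000038550, chromosome 3 from 95785815 to 95789991), which encodes CHRONO, had 322, 347 and 327 normalized counts in NaCl/PBS and 531, 543 and 406 in FeSO4/PBS livers. The FeSO4/PBS livers were all higher, but the rise was small, with an LFC of 0.58 (SE 0.19, FDR 0.019). The call was lost with scaling by library size alone (LFC 0.25, FDR 0.25), and without NaCl/PBS mouse 1 (FDR 0.056), NaCl/PBS mouse 3 (FDR 0.053) or FeSO4/PBS mouse 2 (FDR 0.062).

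Rora (ENSMUSG00000032238, chromosome 9 from 68561068 to 69295528) had 1463, 1272 and 1439 normalized counts in NaCl/PBS and 718, 1639.9 and 1339 in FeSO4/PBS livers. FeSO4/PBS mouse 1 was the lowest and FeSO4/PBS mouse 2 the highest of the 6, so that no difference was detected (LFC -0.18, SE 0.22, FDR 0.51, 95% interval from -0.64 to 0.29). Without FeSO4/PBS mouse 1 the LFC of Rora was 0.10 (FDR 0.53). Usp2 (ENSMUSG00000032010, chromosome 9 from 43978264 to 44006924) had 754, 801 and 715 normalized counts in NaCl/PBS and 132, 183 and 81.6 in FeSO4/PBS livers. The groups of Usp2 lay wide apart, with an LFC of -2.50 (SE 0.31, FDR 1.5e-05), or 5.67-fold lower.

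In whole liver, fewer cells of a type cannot be told apart from less RNA per cell. The summed CPM of 6 hepatocyte markers was between 100554 and 120464 in NaCl/PBS and between 127039 and 142607 in FeSO4/PBS livers. Of these markers, 3 were higher and 0 lower after FeSO4. For Kupffer cells 6 of 6 markers fell, with sums of 321 to 370.3 CPM and of 168 to 198 CPM, and for neutrophils 5 of 5 tested markers rose, with sums of 2.65 to 8.54 CPM and of 33.0 to 42.0 CPM. No marker of these 3 lists was without reads in either group. Of the endothelial markers 2 were higher and 2 lower of 6, among them Lyve1 (LFC 2.83) and Kdr (LFC -1.89). Of the stellate cell markers 2 were higher and 1 lower of 6, with sums of 221 to 229 CPM and of 237 to 328 CPM, and of the cholangiocyte markers 2 were higher and 0 lower of 5 tested, with sums of 27.0 to 34.6 CPM and of 53.9 to 69.5 CPM. The higher cholangiocyte markers were Sox9 (LFC 3.26) and Spp1 (LFC 0.48), whereas Krt19, Krt7 and Epcam were not called. For lymphocytes 0 were higher and 1 lower of 5 tested, and for mesothelial cells 0 were higher and 1 lower of 3 tested, with 2 of the 6 markers listed without reads in FeSO4/PBS livers. In NaCl/DEX livers the hepatocyte sum was between 120483 and 139465 CPM, with 1 of 6 markers higher. The endothelial markers Lyve1 (LFC 1.83) and Kdr (LFC -1.24) and the cholangiocyte marker Sox9 (LFC -1.47) were called in these livers. No marker of Kupffer cells, neutrophils, lymphocytes, stellate cells or mesothelial cells was called. The lymphocyte sum was between 1.93 and 2.60 CPM in NaCl/DEX and between 3.40 and 4.10 CPM in NaCl/PBS livers, and 2 neutrophil markers had no reads in NaCl/DEX livers. The part of these cell types in the changes of the 9 members was not tested.

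**Figure D2:**
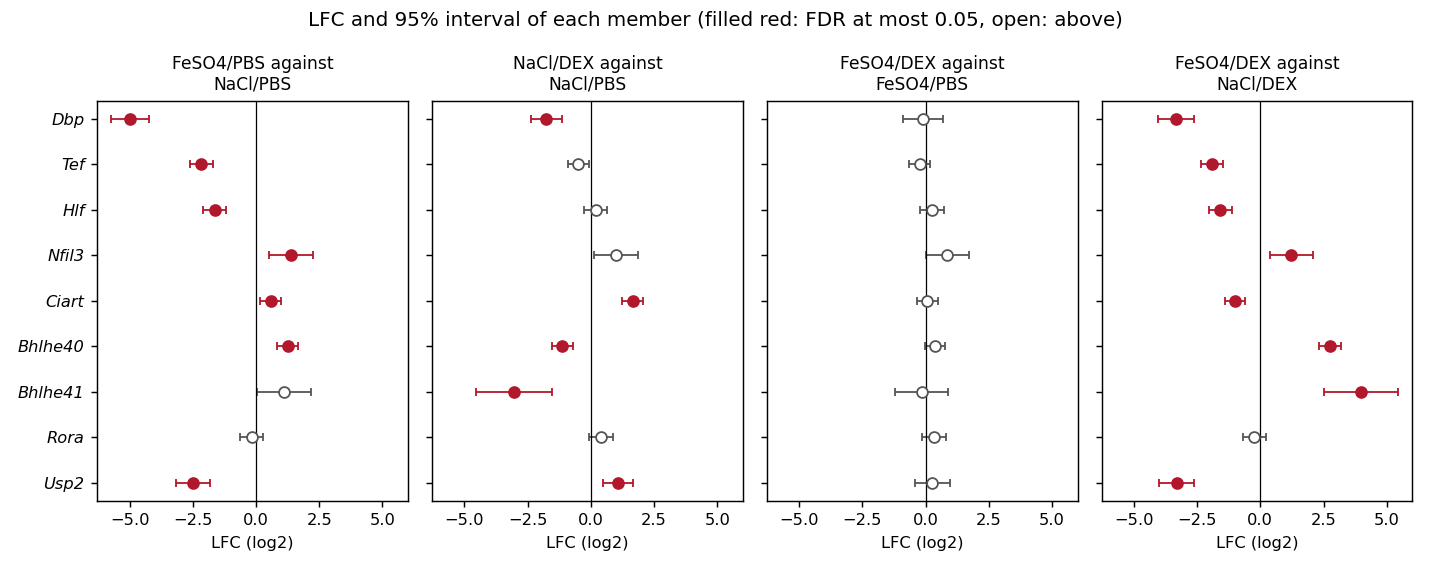
LFC (x axis, log2) with its 95% interval for each of the 9 genes in 4 comparisons. Filled red points had an FDR of 0.05 or less and open points did not. The comparison of FeSO4/DEX with FeSO4/PBS held no filled point.

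The effect of 2 h of DEX in mice without iron was taken from the NaCl/DEX and the same NaCl/PBS mice, so that this comparison shares its controls with the one above. DEX lowered Dbp, Bhlhe40 and Bhlhe41 and raised Ciart and Usp2. These 5 called members, 2 higher and 3 lower, stand beside 13.7% of all genes, of which 6.5% were higher and 7.15% lower. The groups were without overlap in 8 of the 9 members, against 37.9% of all genes. The median LFC of the members was 0.20 and that of all genes -0.02. Among the NaCl/DEX livers, mouse 2 was the lowest in 7 of the 9 members.

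Among the PAR-bZIP genes, Dbp had 828, 541 and 762 normalized counts in NaCl/DEX livers, all below the NaCl/PBS livers (LFC -1.76, SE 0.28, FDR 8.0e-04). Tef had 3542, 2797 and 3303, and Hlf had 1329, 1266 and 1508. The NaCl/DEX livers lay below the NaCl/PBS livers for Tef and above them for Hlf, without overlap. Neither gene was called, with an LFC of -0.49 for Tef (SE 0.19, FDR 0.12, 95% interval from -0.91 to -0.07) and of 0.20 for Hlf (SE 0.21, FDR 0.60, 95% interval from -0.25 to 0.64). Tef was called with scaling by library size alone (LFC -0.65, FDR 0.036).

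Nfil3 had 516, 741 and 660.5 normalized counts after DEX. This range was above that of NaCl/PBS mice 1 and 3 but overlapped with NaCl/PBS mouse 2, and Nfil3 was not called (LFC 1.01, SE 0.41, FDR 0.12). Without NaCl/PBS mouse 2 the LFC was 1.78 and Nfil3 was called (FDR 0.0033). It was also called with no filter on low counts (LFC 1.02, SE 0.15, FDR 3.4e-10). There the LFC was nearly the same and the SE smaller, while the overlap between the groups remained.

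The 3 repressors of CLOCK and BMAL1 went in different directions. Ciart had 1122, 923 and 1091 normalized counts, all far above the NaCl/PBS livers (LFC 1.66, SE 0.19, FDR 5.4e-05). Bhlhe40 had 1140.0, 1111 and 1680.4, all below the NaCl/PBS livers (LFC -1.12, SE 0.19, FDR 0.0013). For Bhlhe41 only 1, 4 and 5 reads were counted in the NaCl/DEX livers, beside 36, 33 and 34 in the NaCl/PBS livers. Bhlhe41 thus went down in all 3 DEX livers, with an LFC of -3.05 (SE 0.70, FDR 0.010). From the summed 103 and 10 reads the ratio was 8.45, with an exact 95% interval of 4.42 to 18.1 that covers counting error only. Bhlhe41 left the test when 10 reads were required in every library.

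Usp2 rose to 1741, 1229 and 1826 normalized counts after DEX, all above the NaCl/PBS livers (LFC 1.08, SE 0.28, FDR 0.020). Its call was lost without NaCl/PBS mouse 1 (FDR 0.065) or 3 (FDR 0.076) and without NaCl/DEX mouse 1 (FDR 0.065) or 3 (FDR 0.080). Rora had 1878, 1651 and 1985, and these livers were all higher than the NaCl/PBS livers, but it was not called (LFC 0.40, SE 0.22, FDR 0.26). It was called when FeSO4/PBS mouse 1 was left out of the model (LFC 0.42, FDR 0.022). In a fit of these 6 libraries alone, Rora (FDR 0.014) and Tef (FDR 0.012) were called.

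Set side by side, FeSO4 and DEX gave LFCs of -4.98 and -1.76 for Dbp and of 1.38 and 1.01 for Nfil3. They gave 0.58 and 1.66 for Ciart. Tef had -2.16 and -0.49. The signs differed in Bhlhe40, with 1.26 after FeSO4 and -1.12 after DEX, and in Usp2, with -2.50 and 1.08. They also differed in Bhlhe41 (1.098 and -3.05), Hlf (-1.63 and 0.20) and Rora (-0.18 and 0.40). Of these last values, only those of Bhlhe41 after DEX and of Hlf after FeSO4 were called. Both sets of values were taken against the same NaCl/PBS mice and came from different times after injection.

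DEX given after iron was then examined in the FeSO4/DEX and FeSO4/PBS mice. None of the 9 members was called by edgeR's quasi-likelihood test, DESeq2 called 0 as well, and 0% of all genes passed in this comparison. Nfil3 alone had an unadjusted p below 0.05 in edgeR's test, at an FDR of 0.76. It was also the only member whose groups did not overlap, against 9.3% of all genes. Nfil3 had 1102, 2368 and 1029.7 normalized counts in FeSO4/DEX livers, of which mouse 2 stood far above the others. The LFC was 0.85 (SE 0.39, 95% interval from 0.01 to 1.70), and 0.35 without FeSO4/DEX mouse 2. With no filter on low counts, edgeR's test called Nfil3 (LFC 0.84, SE 0.14, FDR 3.6e-06), at nearly the same LFC but a smaller SE than with the filter. The values of the mice were the same in both fits. In the fit without the filter 99 of 25013 genes were called higher and 71 lower.

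In the other 8 members LFCs lay between -0.23 for Tef and 0.37 for Bhlhe40. Dbp had 37.7, 47.6 and 128 normalized counts in FeSO4/DEX livers, Tef had 708, 632 and 1251, and Usp2 had 96.7, 133 and 256. In each of these genes FeSO4/DEX mouse 3 was the highest, and it was so in 7 of the 9 members. Without this mouse the LFC of Dbp was -0.85 instead of -0.10, that of Tef -0.61 instead of -0.23 and that of Usp2 -0.24 instead of 0.27, and none of them was called. The 95% intervals of the LFC with all mice ran from -0.88 to 0.68 for Dbp, from -0.33 to 0.48 for Ciart, from -0.03 to 0.78 for Bhlhe40 and from -0.42 to 0.96 for Usp2. For Bhlhe41, with 33.8, 50.3 and 82.0 normalized counts in FeSO4/DEX livers, the interval from -1.20 to 0.90 was the widest of the 9.

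Whether the DEX response differed between FeSO4 and NaCl mice was tested directly as an interaction, which uses all 4 groups. It was called for Dbp, Ciart and Bhlhe40, 2 higher and 1 lower, while 6.18% of all genes were called, 2.99% higher and 3.2% lower. In Ciart, DEX gave an LFC of 1.66 in NaCl and 0.08 in FeSO4 mice, a difference of -1.58 (SE 0.27, FDR 0.0030). In Bhlhe40, the LFCs were -1.12 and 0.37, a difference of 1.498 (SE 0.27, FDR 0.0048). In Dbp they were -1.76 and -0.10, a difference of 1.66 (SE 0.46, FDR 0.048).

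The calls of Ciart and Bhlhe40 held with each mouse left out in turn. The call of Dbp was lost in 9 of 12 such fits, with differences from 0.88 to 1.99 and FDRs from 0.017 to 0.16, and with DESeq2's size factors (FDR 0.052). The lowest of these differences was that without FeSO4/DEX mouse 3. Without FeSO4/PBS mouse 1 the difference of Dbp was 1.67 (FDR 0.058). Bhlhe41 had a difference of 2.90 (SE 0.87, FDR 0.067) that was not called, but was with DESeq2 (adjusted p = 0.017) and without FeSO4/PBS mouse 1 or 3. For Usp2 the difference was -0.81 (SE 0.43, FDR 0.31), with a 95% interval from -1.72 to 0.11. Those of Tef, Hlf, Nfil3 and Rora lay between -0.15 and 0.26.

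Among mice given DEX, the FeSO4/DEX livers were set against the NaCl/DEX livers. Of the 9 members 8 were called, 3 higher and 5 lower, beside 43.3% of all genes, 22.4% higher and 20.9% lower. In the same 8 members the groups did not overlap, against 55.9% of all genes. The activators Dbp (LFC -3.33, FDR 3.4e-06), Tef (-1.90, FDR 6.2e-06) and Hlf (-1.58, FDR 5.5e-05) were lower, as in mice without DEX. Hlf, for instance, had 435, 344 and 593 normalized counts in FeSO4/DEX livers, beside the 1329, 1266 and 1508 of the NaCl/DEX livers.

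Ciart had 427, 416 and 722 normalized counts in FeSO4/DEX livers, all lower than in NaCl/DEX livers (LFC -1.003, SE 0.19, FDR 6.6e-04). Its direction was thus opposite to that in mice without DEX, where FeSO4 raised it. Bhlhe40 reached 8710.1, 10138 and 7670.5, all above the NaCl/DEX livers (LFC 2.75, SE 0.20, FDR 2.7e-07). Bhlhe41 had an LFC of 4.00 (SE 0.68, FDR 3.3e-04), which rests on the 10 reads of the NaCl/DEX livers beside 141 reads in FeSO4/DEX livers. The ratio of these reads was 16.1, with an exact 95% interval of 8.52 to 34.4 for counting error only.

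Usp2 was lower with an LFC of -3.31 (SE 0.31, FDR 2.2e-06). Nfil3 was higher with an LFC of 1.23 (SE 0.40, FDR 0.023), a call that was lost without FeSO4/DEX mouse 2 (LFC 0.70, FDR 0.17) and without NaCl/DEX mouse 1 (FDR 0.082) or 3 (FDR 0.056). Rora, with 1456, 1442 and 1793 normalized counts in FeSO4/DEX livers, overlapped between the groups and was not called (LFC -0.23, SE 0.22, FDR 0.41).

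The order of the 4 groups differed between the members. For Dbp it ran from NaCl/PBS (2397 ± 480.4 normalized counts, SD, n = 3) through NaCl/DEX (710.1 ± 150.4, SD, n = 3) to FeSO4/PBS (75.7 ± 5.74, SD, n = 3) and FeSO4/DEX (71.2 ± 49.8, SD, n = 3), of which the last 2 overlapped. Tef had the same order, and again FeSO4/PBS and FeSO4/DEX overlapped. Hlf and Usp2 were highest in NaCl/DEX, followed by NaCl/PBS, with the 2 overlapping FeSO4 groups at the bottom. Ciart was also highest in NaCl/DEX (1045 ± 107 normalized counts, SD, n = 3) but lowest in NaCl/PBS (332 ± 13.4, SD, n = 3), and its FeSO4 groups in between overlapped. Bhlhe40 was high in both FeSO4 groups, which overlapped, lower in NaCl/PBS and lowest in NaCl/DEX. For Bhlhe41 NaCl/DEX was again the lowest and NaCl/PBS had the next mean, but the FeSO4/PBS livers overlapped with NaCl/PBS as well as with FeSO4/DEX. Nfil3 was lowest in NaCl/PBS and highest in FeSO4/DEX, and NaCl/DEX overlapped with both NaCl/PBS and FeSO4/PBS. For Rora every group overlapped with the next in order of mean.

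To compare levels between genes, normalized counts were divided by exon length in kilobases. In NaCl/PBS livers Dbp led with 691 ± 138 normalized counts per kilobase (SD, n = 3), with overlap with Tef at 547 ± 22.9 (SD, n = 3), followed by Bhlhe40 at 450.1 ± 61.6 (SD, n = 3). The lowest members there were Nfil3 at 64.7 ± 46.3 and Bhlhe41 at 3.98 ± 0.348 per kilobase (SD, n = 3). In FeSO4/PBS livers Bhlhe40 led alone with 1074 ± 234 per kilobase (SD, n = 3), and Ciart, Nfil3 and Tef came next with 189, 167 and 123. Dbp had moved from the first to the seventh place, with 21.8 ± 1.65 normalized counts per kilobase (SD, n = 3). In NaCl/DEX livers Ciart (401 ± 41.0 per kilobase, SD, n = 3) and Tef (389 ± 46.1, SD, n = 3) overlapped at the top.

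A ratio of 2 genes within a liver does not depend on how libraries are scaled to each other. The PAR-bZIP activators and Nfil3 act on the same D-boxes, so each activator was divided by Nfil3, per exon length. The ratio of Dbp to Nfil3 was 23.0, 4.79 and 16.9 in NaCl/PBS livers and 2.29, 1.04 and 1.65 in NaCl/DEX livers. It was 0.127, 0.107 and 0.169 in FeSO4/PBS and 0.0488, 0.0287 and 0.178 in FeSO4/DEX livers. Dbp transcripts thus outnumbered those of Nfil3 per length in all 6 livers given NaCl, and Nfil3 outnumbered Dbp in all 6 given FeSO4.

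The ratio of Tef to Nfil3 had the same pattern, with 15.7, 4.50 and 13.6 in NaCl/PBS, 4.11, 2.26 and 3.00 in NaCl/DEX, 0.625, 0.702 and 0.940 in FeSO4/PBS and 0.385, 0.160 and 0.728 in FeSO4/DEX livers. That of Hlf to Nfil3 lay between 1.22 and 4.44 over the livers given NaCl and between 0.104 and 0.412 over those given FeSO4. All 3 ratios were lowest in NaCl/PBS mouse 2 among the NaCl/PBS mice, the mouse with the high Nfil3 count. Which gene of a pair was ahead depended in part on the division by exon length. Without it, Tef to Nfil3 was 1.04, 1.17 and 1.57 in FeSO4/PBS and 0.642, 0.267 and 1.21 in FeSO4/DEX livers. Dbp to Nfil3 was 0.730 in NaCl/DEX mouse 2 without it. The ratios to Nfil3 were not tested. Bhlhe40 exceeded Bhlhe41 in every liver, with ratios per length of 106, 117 and 115 in NaCl/PBS, 1197, 333 and 376 in NaCl/DEX, 350.3, 139 and 76.6 in FeSO4/PBS and 290.1, 227 and 105 in FeSO4/DEX livers. In the NaCl/DEX livers this ratio stands on 1 to 5 reads of Bhlhe41.

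**Figure D3:**
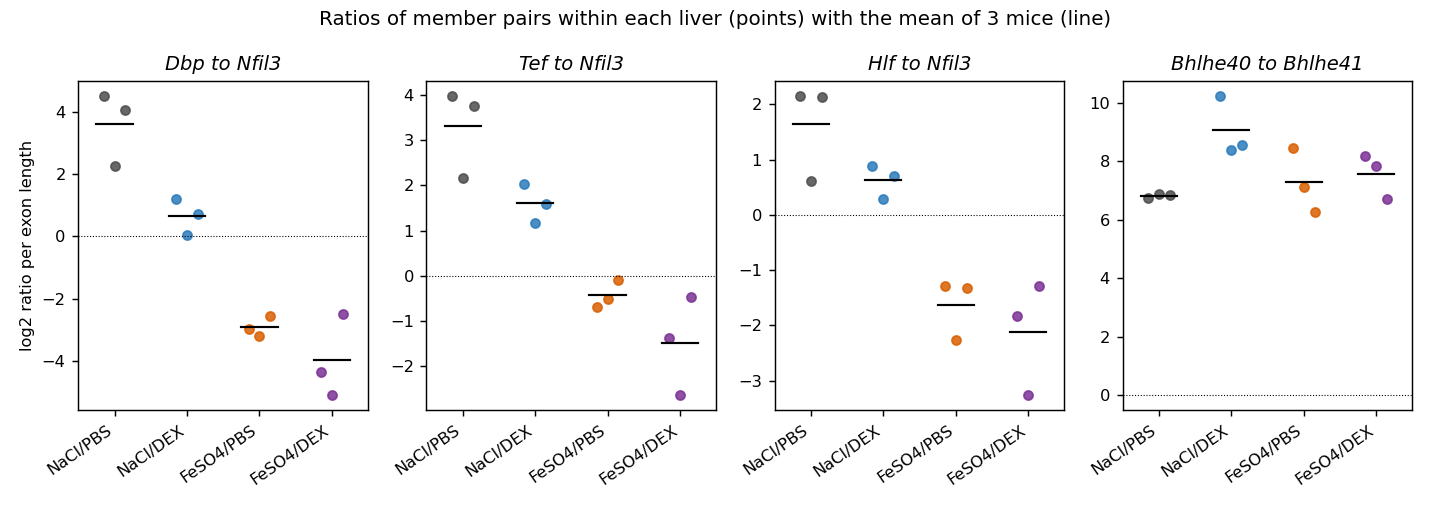
log2 ratio per exon length (y axis) of Dbp, Tef and Hlf to Nfil3 and of Bhlhe40 to Bhlhe41 in each liver (points) of the 4 groups (x axis). Lines are means of 3 mice and the dotted line marks equal levels. The 3 ratios to Nfil3 lay above it in all livers given NaCl and below it in all livers given FeSO4. The place of the points relative to this line depends on the annotated exon lengths.

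Across the 12 livers, Dbp and Tef moved most alike among the members (Pearson's r of log2 CPM 0.99, n = 12). With the group means removed their r was 0.90. Ciart and Usp2, which had an r of 0.48 over the 12 livers, had one of 0.92 within groups. These values describe livers that fall into 4 groups and share 1 scaling, so no p is given.

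Genes outside the list with the most similar pattern were taken from 11464 genes with a mean of at least 1 CPM, 3 for each member. For Dbp they were Ogt, Slc31a2 and Dusp12 (r from 0.98 to 0.99), and for Tef they were Triobp, Ttc9c and Dusp12 (0.98 to 0.99). Hlf was closest to Pds5b, Gopc and Aldh8a1 (0.98 to 0.99), and Usp2 to Pip4k2a, Ubr2 and Zdhhc6 (0.98). Bhlhe40 was closest to Rhod, Cda and Pde4b (0.98 to 0.99), and Bhlhe41 to Mms19, Frat1 and Uaca (0.95 to 0.96). For Ciart these were Sec11a, Slc10a2 and Rbbp8 (0.96). Nfil3 was least closely followed by any gene, with 0.91 for Myc, Pim3 and Adpgk, and Rora was closest to Dapk1, Aldh6a1 and Sfmbt1 (0.93 to 0.94). With group means removed, r fell to 0.34 for Bhlhe40 and Pde4b but was 0.99 for Rora and Dapk1. The SD of Rora was 38.2% of the mean in FeSO4/PBS, where mouse 1 stood apart, and 7.49% to 12.7% in the other groups. The r of Rora and Dapk1 may thus rest largely on this mouse.

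The other genes of the clock were taken from 4 lists. Their counts stand beside those of all genes tested, of which 27.2% were higher and 27.3% lower after FeSO4 (54.5% in all) and 6.5% higher and 7.15% lower after DEX in NaCl mice (13.7% in all), with a median LFC of -0.02 in both comparisons. For 13 of 14 core clock genes a test was made, and after FeSO4 6 were higher and 4 lower, with a median LFC of 0.61. After DEX in NaCl mice 2 were higher and 3 lower, with a median of -0.21. Per3, a clock repressor gene, had the largest called fall after FeSO4 in these lists (LFC -6.60, SE 0.42, FDR 5.9e-08). Npas2, which encodes a partner of BMAL1, rose from 3, 2 and 1 reads to 27, 63 and 65 reads in FeSO4/PBS livers, a ratio of 34.1 with an exact 95% interval of 15.3 to 94.3 for counting error only. Nr1d1, which encodes the repressor REV-ERB alpha that acts against RORA, fell after DEX in NaCl mice (LFC -2.53, SE 0.35, FDR 2.6e-04).

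Of 8 genes with D-boxes in liver, the possible targets of Dbp, Tef, Hlf and Nfil3, 4 were higher and 2 lower after FeSO4 (median LFC 0.47), and 3 were higher and 1 lower after DEX in NaCl mice (median 0.25). Cyp7a1, which encodes the rate-limiting enzyme of bile acid synthesis, had an LFC of -6.01 (SE 0.49, FDR 3.6e-07) after FeSO4, and Fgf21, which encodes a hepatic hormone, had one of 3.61 (SE 0.73, FDR 8.8e-04). Cyp2b10, a cytochrome P450 gene whose reads could be shared with paralogs, had an LFC of 4.70 (SE 0.26, FDR 9.4e-08) after DEX in NaCl mice. It also had the largest called interaction of the 4 lists, at -4.86 (SE 0.34, FDR 3.4e-06).

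Of 8 genes with elements for ROR and REV-ERB, which include Nfil3 and 5 of the core clock genes, 4 were higher and 1 lower after FeSO4 (median LFC 0.84), and 1 was higher and 1 lower after DEX in NaCl mice (median -0.19). Of 10 other clock-controlled liver genes, 4 were higher and 3 lower after FeSO4 (median 0.11), and 5 were higher and 1 lower after DEX in NaCl mice (median 0.50). Insig2, which encodes a retention protein of the SREBP pathway, rose after DEX with an LFC of 2.81 (SE 0.19, FDR 6.8e-07), and Klf10, a zinc finger gene, had an LFC of -1.83 (SE 0.32, FDR 0.0014). In FeSO4 mice, DEX called no gene of the 4 lists.

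**Figure D4:**
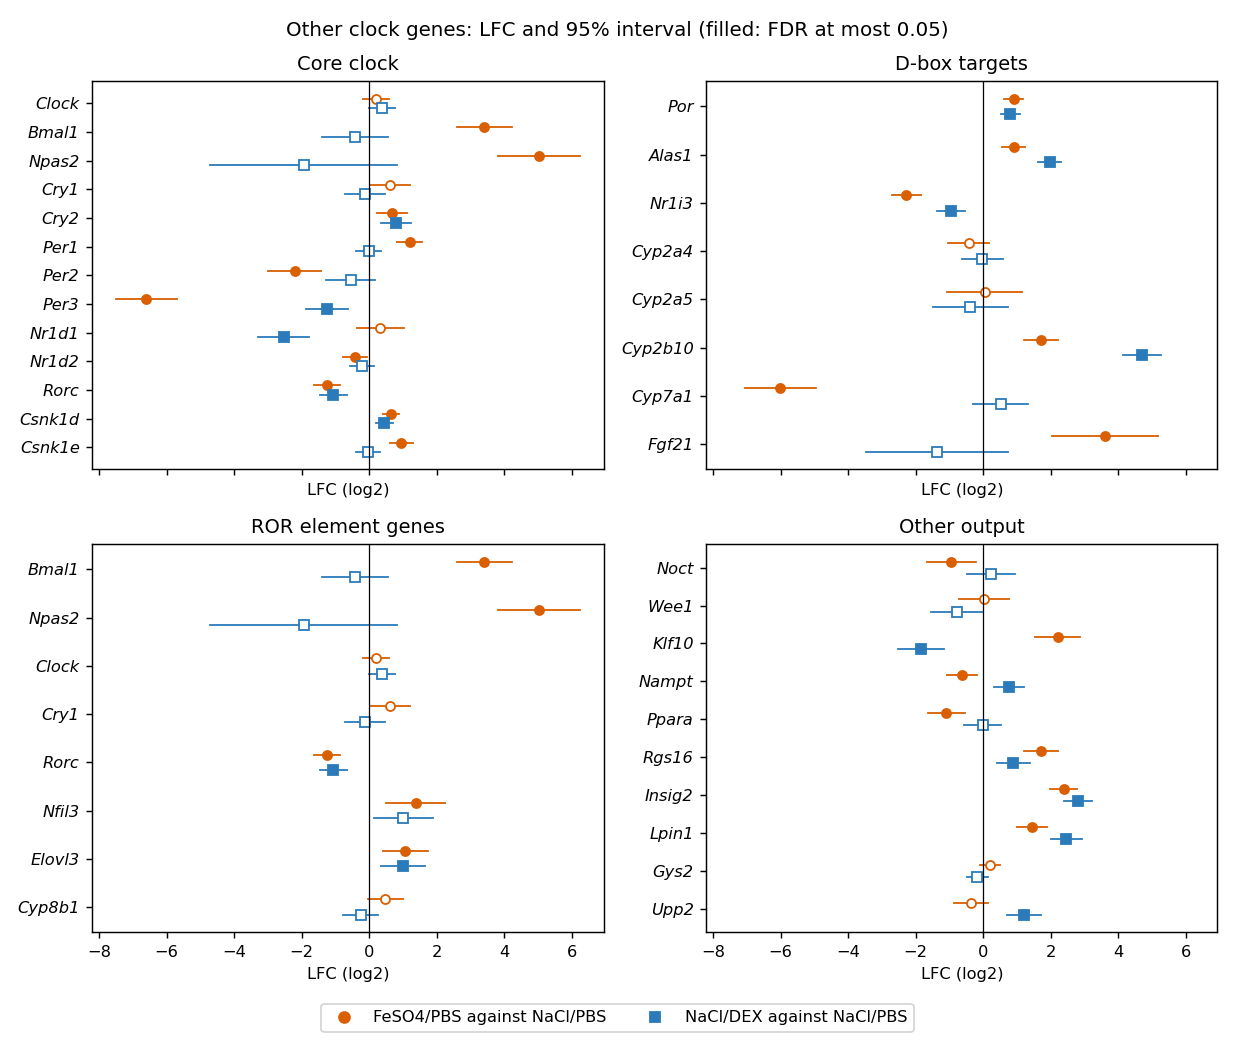
LFC (x axis, log2) with its 95% interval for the genes of 4 lists of other clock genes, after FeSO4 (orange circles) and after DEX in NaCl mice (blue squares). Filled marks had an FDR of 0.05 or less. Within each list, genes lay on both sides of 0 after FeSO4.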

How the data were processed

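According to the study's methods and the labels, the authors made stranded mRNA libraries and read them from 1 end over 100 cycles on an Illumina NovaSeq, checked the reads with FastQC and mapped them to mm39 with STAR 2.7.10b, which also counted reads per gene. The deposited values are whole-number counts without normalization. The strand column used for counting is not given in the sources used here, and the authors' annotation may differ from GENCODE vM39, which gave symbols, positions and exon lengths here.

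All 12 libraries were fitted in R 4.3.3 with edgeR 4.0.16 in 1 quasi-likelihood model of the 4 group means, with filterByExpr and TMM, and contrasts were called at an FDR of 0.05 or less. Correlations used log2 CPM with a prior count of 2. DESeq2 1.42.0 was an alternative, and figures were drawn with matplotlib 3.10.9. The other alternatives were DESeq2's size factors, library size alone, other filters on low counts, the replicate number as a block, a minimum LFC of 1, fits of the compared libraries alone and each mouse left out. The model was tested on simulated data. All 9 members were named, with list genes by the largest called changes, 3 genes of similar pattern per member, and treatment markers. The members and lists were chosen with earlier results of these data known. The marker Tf was matched as Trf.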

Additional observations from a re-analysis of the deposited data

Results flagged for a closer look

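The DEX response was compared between FeSO4 and NaCl mice by edgeR's interaction test. The difference was the LFC of DEX in FeSO4 mice minus that in NaCl mice. Among the 9 clock output genes it was 1.66 (SE 0.46, FDR 0.048) for Dbp, -1.58 (SE 0.27, FDR 0.0030) for Ciart and 1.498 (SE 0.27, FDR 0.0048) for Bhlhe40. In all 3 genes the LFC after DEX was farther from 0 in NaCl mice, with -1.76, 1.66 and -1.12, than in FeSO4 mice, with -0.10, 0.08 and 0.37. The Dbp difference was the least stable, since it was lost in 9 of 12 fits with 1 mouse left out.

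Nr1d1, Insig2 and Cyp2b10 were named for their large called DEX effects in NaCl mice, which enter the interaction, and Cyp2b10 also for the interaction itself, so their values are descriptions. Nr1d1 had a difference of 2.49 (SE 0.47, FDR 0.0068), Cyp2b10 one of -4.86 (SE 0.34, FDR 3.4e-06) and Insig2 one of -2.63 (SE 0.26, FDR 5.8e-05). Klf10, named by the same rule for its fall after DEX in NaCl mice (LFC -1.83), had no called interaction. It had 2562 to 4507 normalized counts in FeSO4/PBS and 1183 to 1532 in FeSO4/DEX livers, without overlap, although DEX called no gene in FeSO4 mice. The GR targets Fkbp5 and Tsc22d3 had differences of -2.43 (SE 0.40, FDR 0.0026) and -1.44 (SE 0.24, FDR 0.0032). In all genes tested 6.18% had a called interaction. No search for outlying values gene by gene was made in groups of 3 mice, although FeSO4/PBS mouse 1 stood apart from its group over the whole table.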

How the results depend on the processing

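Of 23 calls of members over the 5 comparisons, 18 held with each mouse left out in turn. The other 5 were those of Nfil3 and Ciart after FeSO4, Usp2 after DEX in NaCl mice, Nfil3 after FeSO4 in DEX mice and the Dbp interaction. With 1 mouse left out, the number of members called ran from 5 to 8 after FeSO4, from 4 to 6 after DEX in NaCl mice, from 7 to 8 after FeSO4 in DEX mice and from 2 to 3 for the interaction, and stayed 0 for DEX in FeSO4 mice. These fits tested 14150 to 14330 genes. Of all genes, 3298 to 3807 were higher and 3329 to 3815 lower after FeSO4, and 606 to 1284 and 578 to 1259 after DEX in NaCl mice. Counts were 2437 to 3270 and 2462 to 3483 for FeSO4 in DEX mice and 229 to 408 and 308 to 628 for the interaction. For DEX in FeSO4 mice at most 1 gene was called. With no filter on low counts, 8 members instead of 5 were called after DEX in NaCl mice, 1 (Nfil3) instead of 0 after DEX in FeSO4 mice and 5 instead of 3 for the interaction. Of all 25013 genes in that fit, 1129 were called higher and 1248 lower after DEX in NaCl mice. After DEX in FeSO4 mice 99 were higher and 71 lower, and for the interaction 683 were higher and 776 lower. The cause was not tested. A fit of the compared libraries alone called 7 members after DEX in NaCl mice, and DESeq2 called 4 for the interaction. Over all genes, the first called 1338 higher and 1421 lower of 13158, and DESeq2 called 523 higher and 735 lower of 25013. With scaling by library size alone, the Rora interaction turned to 0.059, the median LFC of all genes was -0.34 for FeSO4 and -0.18 for DEX in NaCl mice, and the share of called genes that were higher was 28.2% instead of 49.9% after FeSO4, 25.8% instead of 47.6% after DEX, 34.2% instead of 51.7% after FeSO4 in DEX mice and 63.7% instead of 48.3% for the interaction. For DEX in FeSO4 mice, DESeq2 called 5 genes of the whole table higher and 4 lower, and none of these was a member.

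Signs turned with 1 mouse left out only where the member was not called. In FeSO4 mice the LFC after DEX then ran from -0.63 to 0.38 for Bhlhe41, from -0.24 to 0.20 for Ciart, from -0.85 to 0.23 for Dbp and from -0.24 to 0.57 for Usp2. The interaction ran from -0.21 to 0.31 for Hlf, from -0.93 to 0.12 for Nfil3, from -0.38 to 0.20 for Rora and from -0.14 to 0.40 for Tef, and the LFC of Rora after FeSO4 from -0.44 to 0.10.

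Of 18 pairs with the same replicate number, 2 had a correlation of their deviations above 0.1 (range -0.09 to 0.13). Both joined NaCl/PBS and NaCl/DEX mice. The own number was best in 10 of 36 comparisons. These values gave little sign of pairing by number but, with 3 mice per group, cannot exclude it. With the replicate number as a block, 7 members were called after FeSO4, 6 and 0 by DEX in NaCl and FeSO4 mice, 8 by FeSO4 in DEX mice and 4 for the interaction. Of all 13857 genes, 3613 were higher and 3655 lower after FeSO4 in this fit, and 846 and 908 after DEX in NaCl mice. Counts were 0 and 0 for DEX in FeSO4 mice, 2960 and 2732 for FeSO4 in DEX mice and 340 and 389 for the interaction. The block added Nfil3 after DEX in NaCl mice (LFC 1.17, FDR 0.013) and the Bhlhe41 interaction (3.17, FDR 0.016). Depth limited Bhlhe41, with 1 to 5 reads in the NaCl/DEX livers.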
